A study of Mus musculus with 2 samples.

Results

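The RNA exosome is the main 3′ to 5′ RNA-degrading complex of eukaryotic cells, and 10 of its subunit genes were examined here by name. They were the ring subunits Exosc4, Exosc5, Exosc7, Exosc8 and Exosc9, the cap subunits Exosc1, Exosc2 and Exosc3, and the catalytic subunits Exosc10 and Dis3. All 10 were found among the 55421 genes of the table through the gene symbols of GENCODE release M21. The data came from polyadenylated RNA of Ago1 knockout (KO) E14 mouse embryonic stem (ES) cells of 129/Ola background. Ago1 encodes a member of the Argonaute family, which uses small RNAs as guides, and E14 is a line derived from a blastocyst. The cells were grown on gelatin in medium with serum and leukaemia inhibitory factor (LIF). The only group has 2 libraries, named KO2 and KO1, and no control library was used here. The labels do not say whether the duplicates came from separate clones or cultures, and their spread may thus be technical.

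The exosome trims, processes and degrades RNA in the nucleus and the cytoplasm. Its ring subunits resemble a bacterial phosphorolytic nuclease but have lost that activity in mammals, and they form a channel through which RNA is threaded. The cap subunits sit at the entry and carry RNA-binding domains, and the catalytic subunits cut the RNA. The complex finishes ribosomal RNA, removes promoter upstream transcripts and other short-lived nuclear RNA, and degrades cytoplasmic mRNA with the help of the Ski complex. Transcript levels of the subunits do not give the protein levels of the assembled complex.

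The libraries held 54408708 counts in KO2 and 57048330 in KO1. Ago1, the targeted gene, had 452 counts in KO2 and 1497 in KO1, a ratio of 0.314 (95% interval 0.282 to 0.349). The labels do not say which bases were altered, so these reads do not check the knockout. All 8 ES-cell markers were detected, at 184 to 1511 counts per 1000000 (CPM) in KO2 and 165 to 1678 CPM in KO1. Of 8 fibroblast markers, which could mark feeder cells, 2 were detected, Thy1 at 23.9 CPM in KO2 and 20.4 in KO1 and Pdgfrb at 5.11 in KO2 and 4.37 in KO1. The collagen genes Col1a1, Col1a2 and Col3a1 and the proteoglycan gene Dcn were below 1 CPM, and Postn and Lum were at 0 in both libraries. All 7 primitive endoderm markers were detected, at 2.91 to 55.0 CPM in KO2 and 1.21 to 57.1 CPM in KO1. In such bulk samples, fewer cells of a type and less RNA per cell cannot be told apart. The duplicates stood apart by GC content. Over 15603 genes the log2 ratio of KO2 over KO1 had a Spearman correlation of 0.828 with the GC content of the principal transcript, as a description across genes of the same pair of libraries.

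The subunit genes lie on 8 chromosomes, and 5 of the 10 start back to back with another protein-coding gene on the opposite strand within 1000 bases. A protein-coding start on the opposite strand within that distance was found for 13.8% of 12148 detected protein-coding genes. That share did not check orientation, so it also includes genes whose starts overlap. The arrangement was noticed after the annotation had been seen. The stretches between the principal transcript starts of 4 of these pairs are shown because each lies upstream of both principal transcripts. They are RefSeq sequence of GRCm38.p6, read 5′ to 3′ on the strand of the exosome gene. Capitals mark matches, on either strand, to CCAAT, to the GC box GGGCGG or to the NRF1 core GCATGCGC. The first stretch, chr14:99099771-99099906 on the minus strand, lies between the principal starts of Dis3 and Pibf1, which encodes a centrosomal protein. The second, chr7:25658982-25659190 on the plus strand, lies between those of Exosc5 and Bckdha, a subunit of the branched-chain keto acid dehydrogenase. The third, chr19:41933297-41933489 on the minus strand, lies between those of Exosc1 and the palmitoyltransferase gene Zdhhc16. The last, chr3:54735394-54735538 on the minus strand, lies between those of Exosc8 and Alg5, a glucosyltransferase of protein glycosylation. Other annotated transcripts reach into the first 3 stretches. As whole genes, Pibf1 begins at 99099424, Exosc5 at 25659164 and Zdhhc16 at 41933480, and Exosc1 extends to 41933423.
Dis3: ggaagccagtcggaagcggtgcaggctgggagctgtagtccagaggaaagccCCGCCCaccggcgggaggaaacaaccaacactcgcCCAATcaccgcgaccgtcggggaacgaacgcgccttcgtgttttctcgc
Exosc5: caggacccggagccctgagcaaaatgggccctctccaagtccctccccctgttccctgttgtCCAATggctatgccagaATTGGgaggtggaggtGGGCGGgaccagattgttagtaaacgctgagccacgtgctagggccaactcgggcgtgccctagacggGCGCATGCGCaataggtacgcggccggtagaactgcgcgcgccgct
Exosc1: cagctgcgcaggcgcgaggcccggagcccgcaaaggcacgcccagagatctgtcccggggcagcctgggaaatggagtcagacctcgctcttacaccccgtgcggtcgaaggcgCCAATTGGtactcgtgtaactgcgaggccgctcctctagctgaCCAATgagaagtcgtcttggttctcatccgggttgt
Exosc8: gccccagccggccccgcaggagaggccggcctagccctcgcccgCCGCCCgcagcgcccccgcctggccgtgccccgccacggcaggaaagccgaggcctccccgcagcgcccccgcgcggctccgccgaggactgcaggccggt

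The Dis3 and Pibf1 starts lay 137 bases apart, those of Exosc5 and Bckdha 210, those of Exosc1 and Zdhhc16 194, and those of Exosc8 and Alg5 146. In the fifth pair the starts of Exosc7 and Zdhhc3 lay 10 bases apart. The Exosc5 stretch holds GCGCATGCGC, in which matches to the NRF1 core on both strands overlap, and the Exosc1 stretch holds CCAATTGG, in which CCAAT matches on both strands overlap. RefSeq promoter windows, from 250 bases before to 50 after a start, matched 8 member symbols. Over both strands, TATAAA was in 0 of 8 members' windows, against 13.6% of 32851 windows. CCAAT was found for 4 members, against 37.4% of windows, and GGGCGG for 7, against 35.7%. The ETS core CCGGAAG was found for Exosc3, Exosc10 and Dis3 and in 8.86% of windows, the NRF1 core for Exosc5 and Exosc10 and in 2.71%, and the YY1 core AAGATGGCG for Exosc2 and in 1.4%. A CpG content of at least 0.6 of that given by base composition was found in 8 of 9 member windows, since Exosc10 has windows at separate starts, and in 35.8% of all windows. The background was all windows, not those of detected genes, so these shares do not set the exosome genes apart from other detected genes. These matches are letters in a window and do not show a bound factor.

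All 10 subunit transcripts were detected, taken as at least 1 CPM in both libraries, beside 24.1% of all genes and 55.3% of protein-coding genes. Levels were compared between genes as CPM per kb of merged exons, which counts every annotated exon base of a gene once. Mean levels covered a 4.86-fold range, with the cap gene Exosc2 highest at 42.4 ± 0.991 CPM per kb (SD, n = 2) and the ring gene Exosc5 lowest at 8.73 ± 4.03 CPM per kb. All 10 means lay above the median of 5.85 CPM per kb over the detected protein-coding genes. Exosc2 lay above 90.4% of those genes in KO2 and 90.3% in KO1, and Exosc5 above 66.5% in KO2 and 51.2% in KO1. The counting interval of a member was at most 5.22% of its value to either side, which covers counting error only.

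Merged exons include retained introns and rare ends, so a second scale used the APPRIS principal transcript, chosen after the merged lengths had been seen. The merged length was 6013 bases against a principal transcript of 1053 for Exosc7, 6268 against 1680 for Exosc5 and 4053 against 1018 for Exosc1. For Exosc4 it was 1945 against 1796 and for Exosc3 1324 against 1077. On the principal scale the range was 3.56-fold, with Exosc2 again highest at 72.6 ± 1.70 CPM per kb and Exosc4 lowest at 20.4 ± 8.30 CPM per kb. Exosc2 ranked first under all 4 length definitions tried, and every other member changed rank with the definition.

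**Figure D1:**
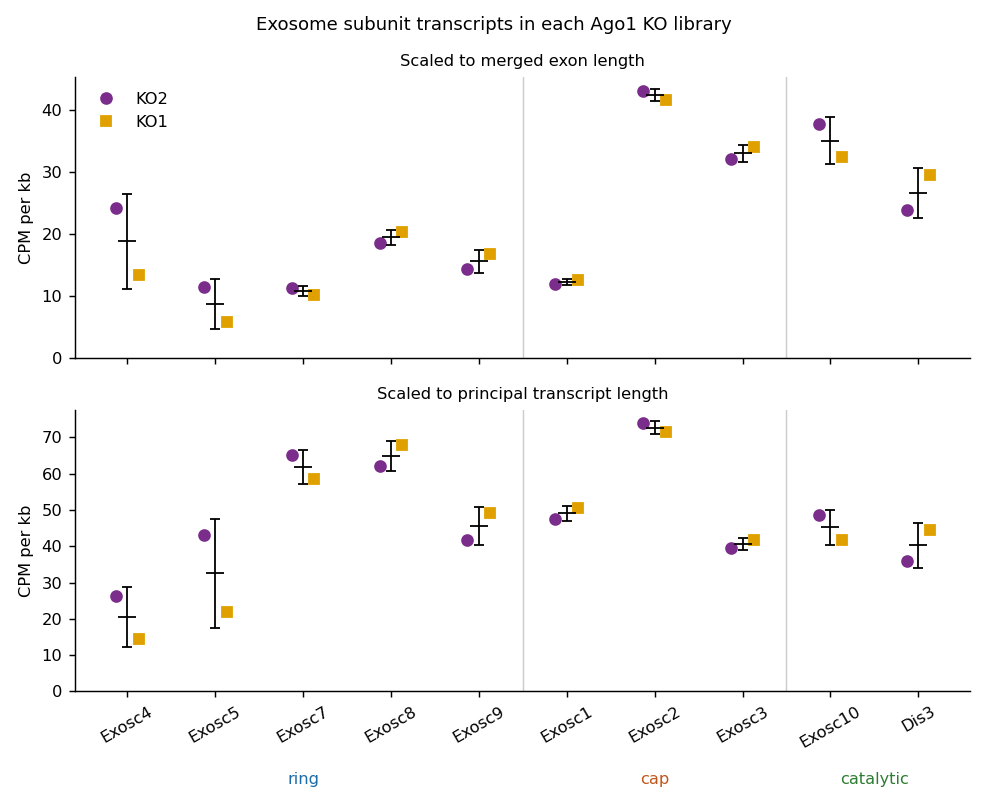
CPM per kb of the 10 subunits in KO2 (circles) and KO1 (squares), scaled to merged exons in the upper panel and to the principal transcript in the lower one, with horizontal marks for the mean and bars for 1 SD. Exosc2 is highest on both scales, and the libraries lie farthest apart, relative to their mean, for Exosc4 and Exosc5.

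Of the cap subunits, Exosc2 and Exosc3 were the more abundant on merged exons. Exosc2, an RNA-binding cap protein known as RRP4 in yeast, lies on the plus strand of chromosome 2, at 31670715 to 31681349, with 9 exons in its principal transcript. It was at 43.1 CPM per kb in KO2 and 41.7 in KO1. The libraries were close, and both lay above every value of the other subunits. Exosc3, known as RRP40 in yeast and mutated in human pontocerebellar hypoplasia, lies on the minus strand of chromosome 4, at 45316613 to 45342732 and has 4 exons. It was at 32.1 CPM per kb in KO2 and 34.0 in KO1. Exosc1, known as CSL4 in yeast, lies on the minus strand of chromosome 19, at 41922292 to 41933423. It was at 11.9 CPM per kb in KO2 and 12.7 in KO1, the lowest of the cap genes on this scale. On the principal scale Exosc1 was at 47.5 CPM per kb in KO2 and 50.5 in KO1, above Exosc3 at 39.4 in KO2 and 41.8 in KO1. The order of Exosc1 and Exosc3 therefore depended on the length used. Exosc2 over Exosc1 was 3.61 in KO2 and 3.29 in KO1 on merged exons, and 1.56 in KO2 and 1.41 in KO1 on principal transcripts.

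The ring subunits were lower than the leading cap genes on merged exons whereas on principal transcripts Exosc7 and Exosc8 were above Exosc1 and Exosc3. Exosc8, known as RRP43 in yeast, lies on the minus strand of chromosome 3, at 54728678 to 54735393, and Exosc9, an autoantigen in human scleromyositis, lies on the plus strand of the same chromosome, at 36552606 to 36565727. Exosc8 was at 18.6 CPM per kb of merged exons in KO2 and 20.4 in KO1. Exosc9 was at 14.4 CPM per kb in KO2 and 16.9 in KO1. Both were lower in KO2. Exosc9 shares 10.8% of its exon bases with the cyclin gene Ccna2 on the opposite strand, which had 16517 counts in KO2 and 19779 in KO1, and whether its reads add to those of Exosc9 was not tested. Exosc7, known as RRP42 in yeast, lies on the plus strand of chromosome 9, at 123113215 to 123136129 and was at 11.4 CPM per kb in KO2 and 10.2 in KO1. On the principal scale Exosc8 was at 62.0 CPM per kb in KO2 and 67.9 in KO1, and Exosc7 at 65.2 in KO2 and 58.4 in KO1. Their ranges overlapped there, and both lay below Exosc2.

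Exosc4 and Exosc5, the ring genes known as RRP41 and RRP46 in yeast, were the members whose libraries lay farthest apart relative to their mean. Exosc4 lies on the plus strand of chromosome 15, at 76327397 to 76330677, with 3 exons, and Exosc5 on the plus strand of chromosome 7, at 25659164 to 25671368, with 7. Exosc4 had 2579 counts in KO2 and 1484 in KO1, which were 24.3 CPM per kb of merged exons in KO2 and 13.4 in KO1. Exosc5 had 3964 counts in KO2 and 2092 in KO1, which were 11.6 CPM per kb in KO2 and 5.87 in KO1. Both were higher in KO2, and their places in the order depend on the library. Exosc4 shares 19.8% of its exon bases with Oplah on the opposite strand. Oplah, a gene of glutathione metabolism, had 853 counts in KO2 and 508 in KO1, and whether its reads add to those of Exosc4 was not tested.

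Of the catalytic subunits, Exosc10 is the nuclear exonuclease known as RRP6 in yeast, and Dis3 is the processive exonuclease and endonuclease known as RRP44. Exosc10 lies on the plus strand of chromosome 4, at 148558429 to 148582401 with 25 exons, and Dis3 on the minus strand of chromosome 14, at 99075206 to 99099770 with 21. Exosc10 was at 37.7 CPM per kb of merged exons in KO2 and 32.4 in KO1. Dis3 was at 23.8 CPM per kb in KO2 and 29.6 in KO1. Exosc10 was higher in KO2 and Dis3 lower, so the gap between them differed between the libraries. Exosc10 over Dis3 was 1.58 (95% interval 1.54 to 1.63) in KO2 and 1.10 (1.06 to 1.13) in KO1 on merged exons. On principal transcripts it was 1.35 in KO2 and 0.937 in KO1, and per coding length 0.793 in KO2 and 0.548 in KO1. Which of the catalytic genes was higher thus depends on the length used and, on principal transcripts, on the library. In CPM without a length, Dis3 was the highest member at 185 in KO2 and 229 in KO1.

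In the order of mean levels on merged exons, Exosc2 was followed by Exosc10, Exosc3, Dis3, Exosc8, Exosc4, Exosc9, Exosc1, Exosc7 and Exosc5. The library values of neighbours overlapped in 4 of 9 cases, namely Exosc10 with Exosc3, Exosc8 with Exosc4, Exosc4 with Exosc9, and Exosc7 with Exosc5. On principal transcripts they overlapped in 7 of 9 cases, and Exosc2 stood apart from Exosc8 and Exosc7 from Exosc1. The middle of the order was therefore not resolved by 2 libraries.

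**Figure D2:**
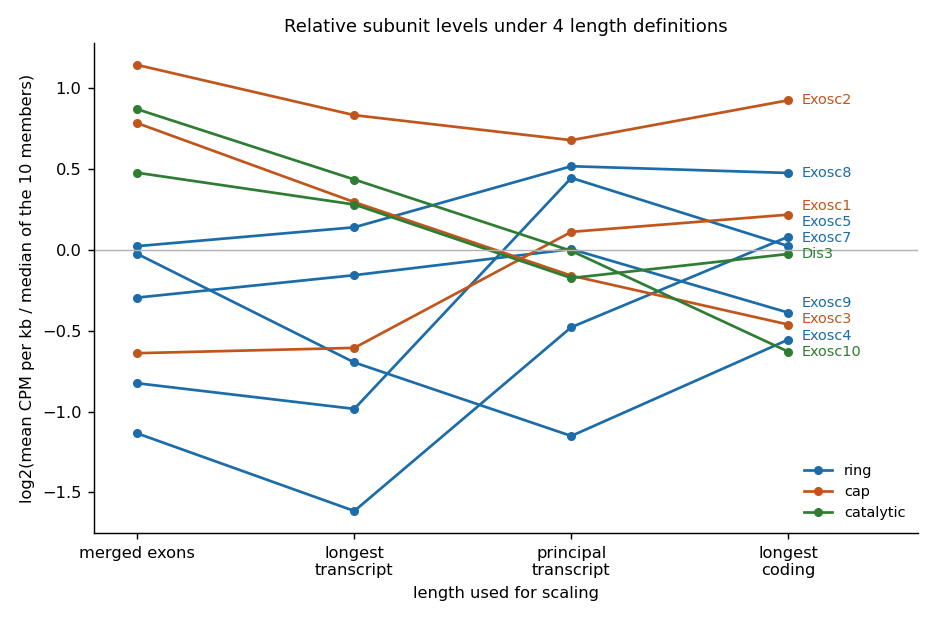
Mean level of each subunit over the median of the 10 subunits, as log2, when counts are scaled to merged exons, the longest transcript, the principal transcript or the longest coding sequence. Exosc2 stays first throughout, and the lines of Exosc10, Exosc3 and Exosc7 cross many others.

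As shares of the summed CPM per kb of merged exons, the 5 ring genes made up 35.0% in KO2 and 30.8% in KO1. The 3 cap genes made up 38.0% in KO2 and 40.7% in KO1, and the 2 catalytic genes 26.9% in KO2 and 28.5% in KO1. On principal transcripts the ring made up 49.3% in KO2 and 45.9% in KO1, the cap 33.2% in KO2 and 35.5% in KO1, and the catalytic genes 17.5% in KO2 and 18.7% in KO1. The ring share was higher in KO2 on both scales, and it does not include Exosc6. In the human complex EXOSC4 contacts EXOSC9 and EXOSC5 contacts EXOSC8 as ring pairs. Exosc4 over Exosc9 was 1.69 in KO2 and 0.795 in KO1 on merged exons, and 0.628 in KO2 and 0.296 in KO1 on principal transcripts. Exosc5 over Exosc8 was 0.622 in KO2 and 0.288 in KO1 on merged exons, and 0.696 in KO2 and 0.323 in KO1 on principal transcripts. Each of these ratios was higher in KO2. Gene lengths cancel in that comparison, so the scales cannot disagree on it. The principal transcripts of Exosc4 and Exosc9 had 54.9% and 44.5% GC, and those of Exosc5 and Exosc8 55.1% and 52.2%. Whether GC content bears on these ratios was not tested.

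Exosc6, the ring subunit outside the member list, had 0 counts in both libraries. With 3 counts taken as its upper limit, a count of 0 allows up to 0.0549 CPM in KO2 and 0.0528 CPM in KO1 of reads assigned to it. It lies on the plus strand of chromosome 8, at 111056339 to 111057664, and 100% of its exon bases lie under exons of Aars, an alanyl-tRNA synthetase gene, on the same strand. Aars had 33739 counts in KO2 and 27939 in KO1. Of 141 protein-coding genes with all their exons under another gene on the same strand, 127, or 90.1%, were listed at 0 in both libraries. So were 25803 of all 55421 genes, a wider set in which 21976 genes are protein-coding, so these counts rest on unlike sets. How much of the 90.1% comes from overlap was not tested. The 0 of Exosc6 is therefore not taken as its level, and any Exosc6 reads among those of Aars cannot be told apart.

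Between the duplicates, 0 of 10 subunits differed by the 2-fold rule, which asks that the whole 95% counting interval of KO2 over KO1 lies beyond 2-fold. Of the 15619 genes whose counts summed to 50 or more, 1.06% did. This rule compares 2 libraries of 1 group, with no replicate check. At 1.5-fold, 2 of 10 members differed, both higher in KO2, beside 6.6% of all genes, 6.4% higher and 0.205% lower. Exosc5 had a ratio of 1.97 (95% interval 1.87 to 2.08) and Exosc4 of 1.81 (1.69 to 1.93). The remaining 8 ratios ran from 0.806 (0.786 to 0.828) for Dis3 to 1.17 (1.13 to 1.20) for Exosc10. The median log2 ratio of the members was -0.02, beside 0.01 over all 15619 genes, and 5 of 10 ratios were above 1, as were 7960 of the 15619. The members thus split evenly around a ratio of 1, with the ring genes Exosc4 and Exosc5 farthest out.

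The order of these ratios followed GC content. The principal transcripts of Dis3 and Exosc9, whose ratios were lowest, had 43.6% and 44.5% GC, and those of Exosc4 and Exosc5, whose ratios were highest, had 54.9% and 55.1%. Across the 10 members, which share both libraries, the Spearman correlation of log2 ratio and GC content was 0.879 for principal and 0.915 for longest transcripts. Over 15603 genes it was 0.828 for principal and 0.811 for longest transcripts, so the relation among the subunits was also present in the table as a whole. Among 1638 genes whose principal GC content lay within 1 percentage point of that of Exosc4, the median log2 ratio was 0.33, and 3.05% had a ratio at least as high as Exosc4. Around Exosc5, 1610 genes had a median of 0.35, and 2.24% reached the ratio of Exosc5. Over all 15619 genes, 5.20% reached that of Exosc4 and 3.21% that of Exosc5.

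**Figure D3:**
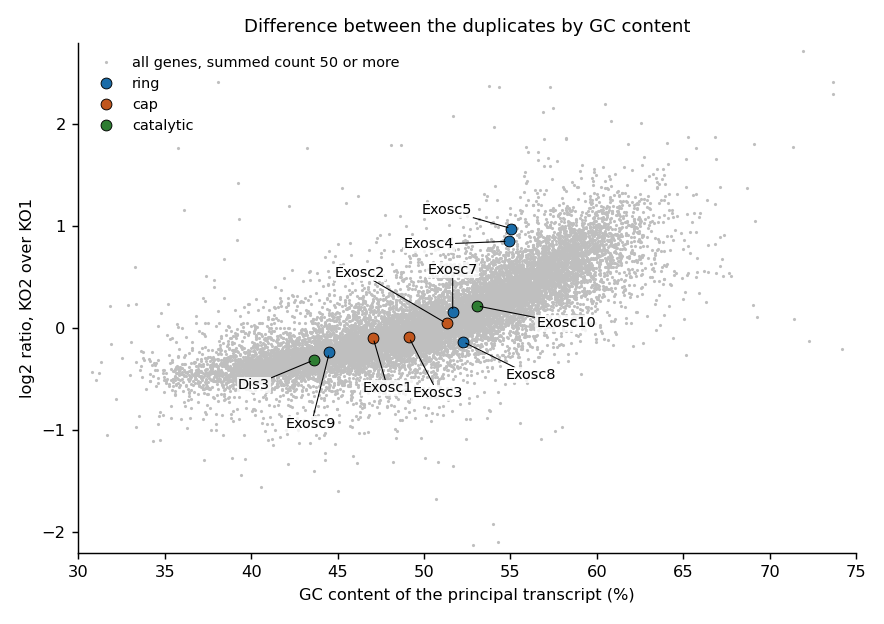
Log2 ratio of KO2 over KO1 against the GC content of the principal transcript, for genes whose counts summed to 50 or more (grey) and the subunits (coloured by role). The subunits lie within the rising band of all genes, with Exosc4 and Exosc5 near its upper edge at 54.9% and 55.1% GC.

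After a lowess correction of the log2 ratio for GC content, Exosc5 was at 0.64 (95% interval 0.56 to 0.71) with principal and 0.71 (0.64 to 0.79) with longest transcripts. Exosc4 was at 0.52 (0.43 to 0.62) with principal and 0.50 (0.41 to 0.59) with longest transcripts. With longest transcripts 1 of 10 members, Exosc5, differed at 1.5-fold, beside 0.891% of 15603 genes, and 0 differed at 2-fold, beside 0.269%. With principal transcripts 0 of 10 differed at 1.5-fold, beside 0.718% of 15603 genes. Under either correction both genes kept the highest ratios of the 10, at a size that depends on the transcript chosen. For Exosc8 the sign depended on that choice, at -0.25 (-0.31 to -0.19) with principal and 0.18 (0.12 to 0.24) with longest transcripts, which had 52.2% and 42.1% GC. Dis3 was at -0.02 (-0.06 to 0.01) with principal transcripts, against -0.31 (-0.35 to -0.27) uncorrected.

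**Figure D4:**
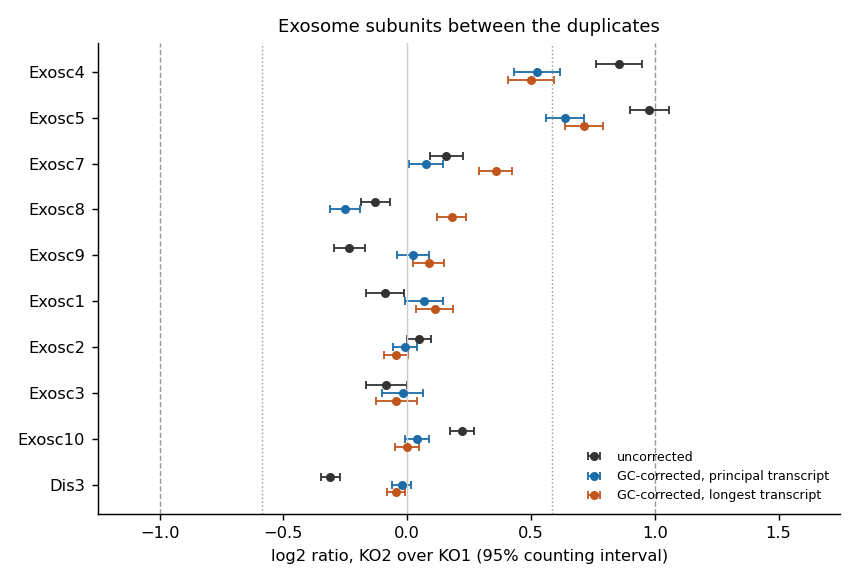
Log2 ratio of KO2 over KO1 for each subunit, uncorrected and after GC correction with principal or longest transcripts, with 95% counting intervals and dashed lines at 2-fold and dotted lines at 1.5-fold. Exosc5 and Exosc4 stay to the right of the other subunits in all 3 versions, and the uncorrected ratio of Dis3 at -0.31 moves to -0.02 and -0.05.

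At the shared starts shown above, the exosome gene was the higher of its pair on merged exons for Dis3, Exosc8, Exosc1 and Exosc7, and the lower for Exosc5. Pibf1 was at 1.77 CPM per kb in KO2 and 2.29 in KO1, far below Dis3. Alg5 was at 5.73 CPM per kb in KO2 and 6.14 in KO1, Zdhhc16 at 9.52 in KO2 and 9.40 in KO1, and Zdhhc3 at 7.02 in KO2 and 6.94 in KO1. Bckdha was at 49.4 CPM per kb in KO2 and 22.5 in KO1, above Exosc5 in both libraries. On principal transcripts the gap was small, with Exosc5 at 43.2 CPM per kb in KO2 and 21.9 in KO1 beside the same values for Bckdha. The Bckdha ratio of KO2 over KO1 was 2.19 (95% interval 2.09 to 2.30), beyond 2-fold, beside 1.97 for Exosc5. After GC correction with longest transcripts its log2 ratio was 0.53 (0.46 to 0.60). Pibf1, at a ratio of 0.777, and Dis3, at 0.806, were both lower in KO2, and after the same correction both were at -0.05 in log2. Alg5, at 0.934, and Exosc8, at 0.914, were both below 1. Zdhhc3, at 1.01, and Exosc7, at 1.12, were both above 1. Zdhhc16, at 1.01, and Exosc1, at 0.940, lay on either side of 1. The 95% intervals of Alg5, Zdhhc3 and Zdhhc16 include 1. Whether the shared stretch bears on these ratios was not tested.

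Dis3 was the leading gene of its family. Its cytoplasmic exosome relative Dis3l was at 4.97 CPM per kb in KO2 and 5.14 in KO1, and Dis3l2, which degrades uridylated RNA outside the exosome, was at 2.04 in KO2 and 1.96 in KO1. Dis3 made up 77.3% of the summed level of these genes in KO2 and 80.6% in KO1, with a mean of 79.0% ± 2.37 (SD, n = 2).

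The cofactors that bring RNA to the exosome were detected in full, with 24 of 24 genes over 3 lists, beside 55.3% of protein-coding genes. Their median was 15.6 CPM per kb of merged exons, beside 19.2 for the subunits, and 27.5 on principal transcripts, beside 45.3 for the subunits. By the 2-fold rule 0 of 24 differed, beside 1.06% of all genes. At 1.5-fold 3 of 24 were higher in KO2, beside 6.4% of all genes, and 0 were lower, beside 0.205%. After GC correction 0 of 24 differed at 1.5-fold with longest transcripts, beside 0.891%, and 0 with principal transcripts, beside 0.718%. Of 9 nuclear cofactors, Mtrex, the helicase known as MTR4 in yeast, was highest at 39.6 ± 6.45 CPM per kb of merged exons (SD, n = 2). Nop53, which helps bring the helicase to ribosomal precursors, was at 30.2 ± 9.47 CPM per kb. The lowest on this scale were Zcchc7 at 4.60 ± 0.629 and the poly(A) polymerase gene Tent4a at 3.98 ± 0.430 CPM per kb. On principal transcripts Mtrex was at 68.7 ± 11.2 CPM per kb and Tent4a at 8.89 ± 0.960, still the highest and lowest, whereas Zcchc7, at 17.7 ± 2.42, was no longer among the lowest. On that scale Nop53, at 36.6 ± 11.5, was below the cofactor gene Mphosph6, at 58.2 ± 6.43. Nop53 was higher in KO2 at a ratio of 1.57 (1.51 to 1.63).

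The 11 genes of the nuclear exosome targeting (NEXT) complex, the poly(A) tail exosome targeting (PAXT) connection and cap binding ranged more widely. Srrt, which links the cap-binding complex to RNA decay, was at 63.1 ± 12.2 CPM per kb and the cap-binding gene Ncbp1 at 53.0 ± 4.76 CPM per kb. Both means were above that of every exosome subunit on merged exons, and on principal transcripts Srrt, at 110 ± 21.1 CPM per kb, was above every subunit and Ncbp1, at 59.6 ± 5.35, was below Exosc2. The lowest on merged exons were Zc3h3, a zinc-finger partner of PAXT, at 6.39 ± 3.10 CPM per kb and the nuclear poly(A)-binding gene Pabpn1 at 5.15 ± 0.857. On principal transcripts Zc3h3 was the lowest at 6.67 ± 3.24, followed by Zfc3h1 at 9.72 ± 1.83 and Pabpn1 at 15.2 ± 2.53. On merged exons Zc3h3 was at 8.59 CPM per kb in KO2 and 4.20 in KO1, a ratio of 2.04 (1.88 to 2.22).

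In the cytoplasm the Ski complex feeds mRNA to the exosome. Its subunit Wdr61, which also belongs to a complex bound to RNA polymerase, was at 22.0 ± 2.08 CPM per kb of merged exons. Hbs1l, a ribosome rescue gene of which a splice form bridges the Ski complex and the exosome in human cells, was at 16.3 ± 0.978. The scaffold gene Ttc37 was at 10.8 ± 1.65 CPM per kb and the helicase gene Skiv2l at 6.69 ± 2.77. On principal transcripts Wdr61 was at 79.8 ± 7.53 CPM per kb, above the mean of every exosome subunit. Hbs1l was at 36.1 ± 2.17, Ttc37 at 18.2 ± 2.78 and Skiv2l at 8.43 ± 3.49 on that scale. Skiv2l was the lowest of these 4 on both scales and had a ratio of 1.83 (1.71 to 1.96), higher in KO2. Of the 5′ to 3′ exonucleases, which work from the other end of an RNA, the nuclear Xrn2 was at 57.1 ± 8.89 CPM per kb of merged exons and the cytoplasmic Xrn1 at 4.76 ± 1.02. On principal transcripts Xrn2 was at 66.2 ± 10.3 CPM per kb and Xrn1 at 16.1 ± 3.46, so Xrn2 was higher on both scales by a factor that depends on the length.

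**Figure D5:**
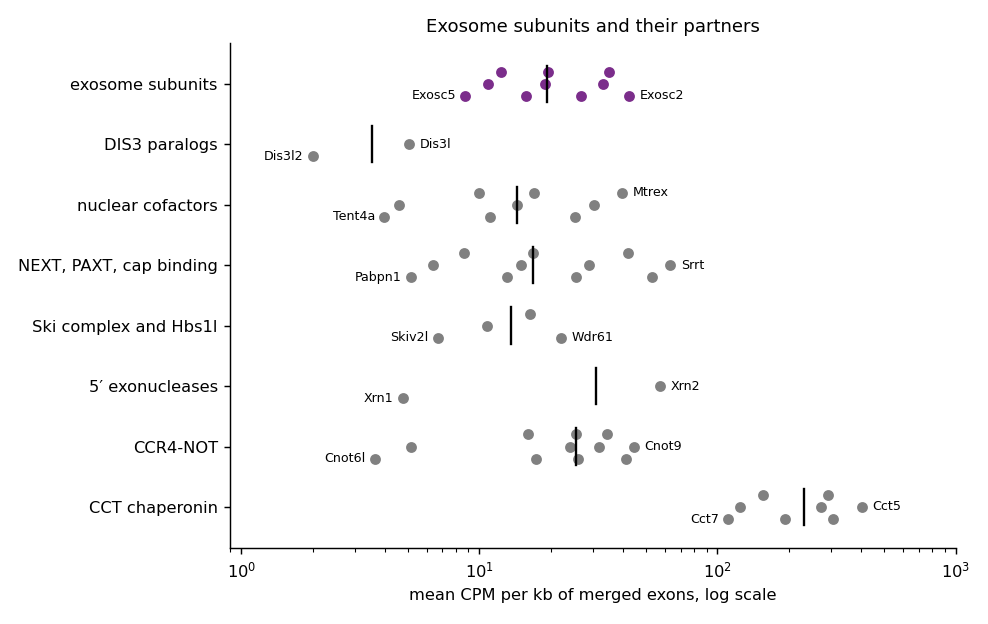
Mean CPM per kb of merged exons, on a log axis, for the exosome subunits (purple) and related genes and other complexes (grey), with a vertical mark at the median of each list and the lowest and highest genes named. The subunits lie between 8.73 and 42.4, inside the range of the cofactors and below the CCT chaperonin.

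By the highest over the lowest mean, the listed subunits spread less than the listed genes of another RNA decay complex. On both scales they spread more than those of a chaperonin. The highest over the lowest mean was 4.86 for the 10 exosome genes, 12.2 for 11 genes of the CCR4-NOT deadenylase and 3.64 for 8 genes of the CCT chaperonin on merged exons. On principal transcripts it was 3.56 for the exosome, 19.3 for CCR4-NOT and 1.96 for CCT. In CCR4-NOT, Cnot9 was highest at 44.4 CPM per kb of merged exons and the deadenylase gene Cnot6l lowest at 3.63. Cnot4 was at 5.14 and the next gene, Cnot7, at 16.0. On principal transcripts Cnot6l was at 4.38, Cnot4 at 15.1 and the next, Cnot11, at 25.7, below Cnot1 at 84.5. Without Cnot6l and Cnot4, the exosome would have the wider range on both scales. The exosome list also leaves out Exosc6 and Dis3l. In CCT, Cct5 was highest at 404 CPM per kb and Cct7 lowest at 111. The difference in spread between these complexes was not tested.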

How the data were processed

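The values deposited by the authors are unnormalized read counts, as whole numbers, for each gene in both libraries. Per the labels' protocols, RNA from Trizol was made into polyadenylated RNA libraries with a TruSeq kit, in a protocol labelled reverse-stranded. The submitters' processing notes name the build GRCm38. No aligner, counting program or strand setting is named in the sources used here. Of 55421 identifiers, 55240 were in GENCODE release M21, and the other 181 held 0.00416% of counts. Total counts were 54408708 in KO2 and 57048330 in KO1.

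CPM used TMM factors of edgeR 4.0.16 (1.00 for KO2, 0.996 for KO1). The ratio of KO2 over KO1 and its exact conditional binomial 95% interval used no prior count. Log2 ratios used a prior count of 0.5, and genes called as differing had a summed count of at least 50. Intervals and floors (3 counts) cover counting error only. With 1 group, no test between conditions was possible and no p-value is given. GC was corrected with lowess (statsmodels 0.14.6, span 0.3). Near-identical copies of at least 250 bases at 90% identity (blastn 2.17.0) were found only with genes that overlap a member: Pibf1 for Dis3, Ccna2 for Exosc9 and Aars for Exosc6. Steps were tested on simulated data.

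The members and lists were chosen with earlier results of these data known. The genes named were all members, Exosc6, Ago1, the 2 highest and lowest of each cofactor list and any differing, the highest and lowest of CCR4-NOT and CCT, and the neighbours at shared or overlapping sites, added after the annotation was seen.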

Additional observations from a re-analysis of the deposited data

How the results depend on the processing

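No paired analysis was possible because there is a single group. Principal-transcript settings were chosen after seeing the data. Against a geometric mean Exosc10 over Dis3 ratio of 1.32, coding length gave 0.659 and CPM without a length 0.610, both below 1. The gene lengths set the factor between the scales, and the counts set the value on each. Shares of ring, cap and catalytic genes, at 32.9%, 39.4% and 27.7%, were 47.4%, 36.8% and 15.8% with coding length, 36.4%, 25.0% and 38.6% in CPM, and 47.6%, 34.3% and 18.1% with principal transcripts. With the longest transcript the catalytic share was 26.5%. The Dis3 share of its family, at 79.0%, was 82.2% with coding length, 81.9% in CPM and 74.7% with principal transcripts. The count of 0 members differing became 2 at 1.5-fold. The median log2 ratio of -0.02 became 0.098 with GC correction on longest and 0.030 on principal transcripts, and the cause of the change in sign was not tested. With single libraries the spread of levels ran from 3.78 to 7.10, the ring share from 30.8% to 35.0%, the Exosc10 over Dis3 ratio from 1.10 to 1.58 and the Dis3 family share from 77.3% to 80.6%. With 2 libraries, single values lie within 1 SD of the mean by construction. DESeq2 1.42.0 gave both libraries a size factor of 1, so that alternative is the unscaled one. Depth was not limiting for the members, since the widest counting interval was 5.22% of a value, whereas the SD of the 2 libraries was wider than that for 7 of 10 members, all but Exosc1, Exosc2 and Exosc3.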
